A study of Rattus norvegicus with 12 samples.

Results

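Silenced rat cortical neuron cultures with a short hairpin RNA against Ehmt1 were compared with silenced wild-type cultures, 3 libraries against 3, out of 12 libraries in all. The cultures were primary cortical neurons of Wistar rats at embryonic day 18 (E18). Both groups were given tetrodotoxin (TTX), a toxin that closes voltage-gated sodium channels and stops action potentials. By the labels the groups differed in the hairpin alone, and the comparison asks which transcripts differ with Ehmt1 knockdown once firing is blocked. No control hairpin is named in the labels, so an effect of a hairpin or its delivery and an effect of less Ehmt1 cannot be told apart. The dose and duration of TTX, the promoter and vector of the hairpin, and which libraries shared a sequencing lane are not given in the sources used here. The other 6 libraries, wild-type and knockdown without TTX, are used only to set the knockdown difference beside the one in untreated cultures. The design text calls each group a biological triplicate and says no more of its origin, so p-values measure the spread between these libraries.

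Ehmt1 encodes a methyltransferase (also called GLP) that, with its partner Ehmt2 (G9a), methylates lysine 9 of histone H3, a mark of repressed genes. Loss of a copy of the human gene causes Kleefstra syndrome, a form of intellectual disability. When firing is blocked for long, cortical neurons turn down activity-driven genes and scale up their excitatory synapses, a process called synaptic scaling in which EHMT1 has been implicated.

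Levels are given as read equivalents, the coverage contributed by a single 42-nt read, after division by the authors' size factor for the library. They are not corrected for transcript length, so levels of different genes are not compared. Before size factors the depth ran from 15108848 to 23569628 read equivalents a library, wild-type replicate 3 being the shallowest. Of 17339 gene symbols, 11770 reached 10 read equivalents in 3 or more of the 6 libraries and were tested, and 5569 were not. Neuronal markers were abundant in all 6 libraries, with Map2 between 14141 and 20082 and Tubb3 between 19273 and 35624. The cultures also held markers of other cells: the astrocyte gene Slc1a3 lay between 32478 and 50953, and Top2a, a gene of dividing cells, between 2761 and 4298. Of the endothelial markers Cdh5 was at 0 in all 6 libraries and Cldn5 at 2.46 or less, but Kdr reached 32.7 in wild-type replicate 3. Pecam1, a further one, stood at 37.2, 22.9 and 20.7 in knockdown and 23.5, 15.2 and 14 in wild-type libraries.

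Knockdown replicates 1 and 3 and wild-type replicates 1 and 3 each stood apart from the other libraries in some genes or lists. Knockdown replicate 1 had the highest medians of the pan-neuronal, glutamatergic and presynaptic lists and few transcripts of oligodendrocyte precursors, with the precursor receptor gene Pdgfra at 426 against 6264 to 14214 in the other 5. Knockdown replicate 3 was the lowest library in the calcium channel and presynaptic lists, at -0.55 and -0.28. It was the highest in the astrocyte list, at 0.44. These values are list medians of log2 levels minus the mean of the 6 libraries. Wild-type replicate 1 had the most myelin transcripts, with Mbp at 7294. Wild-type replicate 3 held the most 28S ribosomal RNA, Rn28s at 2746, and had Aurkb, a mitotic kinase gene, at 9008 against 455 to 762 elsewhere.

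Ehmt1 (NM_001108572) stood at 1149, 1463 and 1122 in knockdown replicates 1 to 3 and at 1967, 1678 and 1774 in wild-type replicates 1 to 3. No knockdown library reached the wild-type range. The means were 1245 ± 190 and 1806 ± 148 (SD, n = 3 each), so that 68.9% of the wild-type level was left. The log2 difference was -0.54 (SE 0.15), with a limma adjusted p of 0.676. The exact two-sided permutation p was 0.1, the smallest that 3 against 3 allows. An adjusted p computed here from the p in the authors' deposited table, credited there to DESeq, was 0.146. Leaving out 1 library in turn gave log2 differences from -0.67 to -0.47. Ehmt2 (NM_212463), the partner enzyme, stood at 3979, 4938 and 3753 in knockdown and 4057, 4930 and 3969 in wild-type libraries. The groups of Ehmt2 overlapped, with a log2 difference of -0.04 (SE 0.16, limma adjusted p = 0.963). Its sign was positive when knockdown replicate 1, knockdown replicate 3 or wild-type replicate 2 was left out.

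Other genes of the same chromatin system had values in both directions, some as large as that of Ehmt1. Cbx3, a reader of methylated lysine 9, was at a log2 difference of -0.35 (SE 0.16) and Kdm3a, a demethylase that removes the mark, at -0.41 (SE 0.15). Sirt2, a deacetylase that oligodendrocytes also express strongly, stood at 2345, 2705 and 3816 against 5060, 3321 and 4417 (log2 -0.54, SE 0.24). Kdm4d, a demethylase, was at 0.53 (SE 0.36) and Hdac9, a deacetylase, at 0.44 (SE 0.21). The groups of Sirt2, Kdm4d and Hdac9 overlapped. The median log2 difference was -0.08 over 9 other methyltransferases and readers, -0.07 over 9 demethylases and 0.07 over 11 histone deacetylases. Germline genes, a class kept silent by this mark in mouse embryonic stem cells, were mostly too low to test: Sycp3 and Dmc1 alone of the 13 in the table had the level needed, both with lower values in the knockdown, at -0.37 and -0.45.

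No gene passed the test over the whole table. Of 11770 genes, 0 (0.0%) had an adjusted p under 0.05 in limma, and the smallest adjusted p was 0.187. At an unadjusted limma p under 0.05 there were 862 genes (7.32%), 419 higher (3.56%) and 443 lower (3.76%) in the knockdown. That count was 387 without knockdown replicate 1, 362 without wild-type replicate 1, 1472 without knockdown replicate 3 and 1368 without wild-type replicate 2, and 0 genes passed after adjustment in each of these fits. The 3 knockdown libraries did not overlap the 3 wild-type libraries in 1545 genes (13.1%), 753 higher (6.4%) and 792 lower (6.73%). Over all genes 5870 (49.9%) were higher and 5900 (50.1%) lower, with a median log2 difference of -0.001. The p-values in the authors' deposited table, which its header credits to DESeq, gave 48 genes (0.408%) when adjusted here over the same 11770 genes, 15 higher (0.127%) and 33 lower (0.28%). Limma adjusted p of the single genes named below lay between 0.676 and 0.995, apart from 0.187 for Mmp2, Cntnap5a and Cpne9. They are therefore given as measured values that did not pass in limma, and where an adjusted p rests on the authors' deposited table, it was computed here from the p given there. The sources used here do not say whether those p-values had been adjusted already, and they were taken as unadjusted. In the authors' deposited table, of 18905 entries, 6.35% had a p under 0.05. Not every gene named below passed with those p-values. Adjusted here in the same way, they were 0.133 for Srsf12, 0.142 for Acaa1b and 0.145 for Asns. Others were farther from passing, at 0.226 for Egr3, 0.342 for Dleu7, 0.405 for Hacd1, 0.413 for Emc9 and 0.806 for Gpr17. For Cldn11 the authors' z score was -0.005, and it did not pass either.

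**Figure D1:**
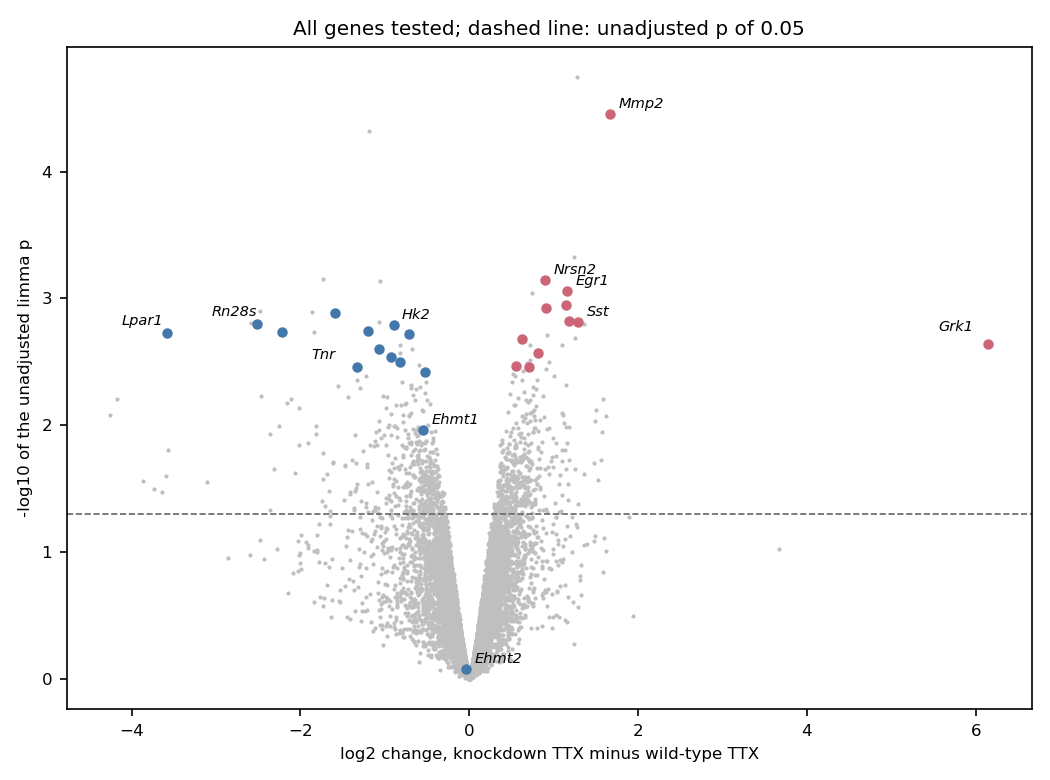
Difference between knockdown and wild-type TTX libraries for each of the 11770 genes tested, as the log2 difference (x) against the -log10 of the unadjusted limma p (y). Red and blue points are the 12 named genes higher and the 12 lower in the knockdown, with Ehmt1 and Ehmt2, and the dashed line is an unadjusted p of 0.05. Of the named genes Mmp2 stands highest, Grk1 farthest right and Lpar1 farthest left, and 0 of the points drawn passed after adjustment.

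Promoter sequences are shown for activity and stress genes whose groups did not overlap and that carry a known control element near the start. They are the 250 bases before the annotated start, from RefSeq on the GRCr8 build, written along the gene's own strand with the element in capitals. RefSeq windows could be matched by symbol for 8941 of the 11770 genes tested. Vgf and Scg2 hold the palindromic cAMP response element TGACGTCA, the site of the activity-regulated factor CREB, and Egr1 holds 2 CArG boxes, the serum response element core bound by SRF. Trib3 and Nupr1 hold TGATGNAAN, the element that ATF4 and its partners bind. Nupr1 met the filter on levels through its wild-type libraries alone. Both strands were searched, and the element of Trib3 and of Nupr1 lies on the reverse strand and is seen here as its complement. The windows are Vgf at chr12:25277021-25277270 (minus strand), Scg2 at chr9:88256867-88257116 (minus strand), Egr1 at chr18:26736828-26737077 (plus strand), Trib3 at chr3:161275534-161275783 (minus strand) and Nupr1 at chr1:190645902-190646151 (minus strand). The first base of the element lies 90 bases before the start in Vgf, 123 in Scg2, 105 and 83 in Egr1, 22 in Trib3 and 56 in Nupr1.
Vgf: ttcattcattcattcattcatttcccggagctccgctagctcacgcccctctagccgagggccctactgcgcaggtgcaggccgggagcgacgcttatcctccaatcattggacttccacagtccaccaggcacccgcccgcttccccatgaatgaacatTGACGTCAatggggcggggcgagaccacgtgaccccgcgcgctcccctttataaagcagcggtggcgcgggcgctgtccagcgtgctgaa
Scg2: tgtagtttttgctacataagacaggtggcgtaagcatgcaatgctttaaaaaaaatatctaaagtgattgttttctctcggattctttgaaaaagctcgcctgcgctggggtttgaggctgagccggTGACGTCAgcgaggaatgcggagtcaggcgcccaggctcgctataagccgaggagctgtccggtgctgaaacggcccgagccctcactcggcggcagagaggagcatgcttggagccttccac
Egr1: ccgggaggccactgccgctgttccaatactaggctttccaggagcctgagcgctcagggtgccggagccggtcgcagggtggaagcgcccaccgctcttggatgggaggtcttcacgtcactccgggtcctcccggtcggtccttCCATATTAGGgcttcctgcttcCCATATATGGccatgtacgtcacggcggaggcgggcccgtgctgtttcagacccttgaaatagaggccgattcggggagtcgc
Trib3: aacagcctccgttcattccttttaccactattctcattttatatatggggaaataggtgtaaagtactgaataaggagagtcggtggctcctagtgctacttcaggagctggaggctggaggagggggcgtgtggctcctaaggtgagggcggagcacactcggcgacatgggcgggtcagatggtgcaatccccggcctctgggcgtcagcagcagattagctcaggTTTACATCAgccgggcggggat
Nupr1: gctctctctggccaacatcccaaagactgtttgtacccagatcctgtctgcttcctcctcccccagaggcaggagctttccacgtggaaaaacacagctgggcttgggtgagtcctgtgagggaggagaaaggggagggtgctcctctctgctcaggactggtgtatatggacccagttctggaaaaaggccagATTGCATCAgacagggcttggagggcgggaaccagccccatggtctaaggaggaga
A match describes the letters in this window and is not a measured site. TGACGTCA occurs in 531 of 33469 windows (1.587%), a CArG box in 501 (1.497%) and TGATGNAAN in 1132 (3.382%). Those shares are per window, over genes tested or not. The list counts that follow are per tested gene with a match in any of its windows, so their base is not the same. No list count was made for the CArG box. Among immediate early genes 4 of 18 with a window held TGACGTCA (Ier2, Dusp1, Btg2 and Maff), and among late activity effectors 4 of 21 (Vgf, Scg2, Plk2 and Crem). Of 19 ATF4 stress genes 3 held TGATGNAAN (Trib3, Chac1 and Nupr1).

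Activity-driven genes were mostly measured higher in the knockdown, with both groups silenced. Pan-neuronal markers were higher to a like degree, in 13 of 14 genes with a median log2 difference of 0.50, and the part of that in the activity lists was not tested. Immediate early genes encode the regulators that firing switches on first, and 20 of the 24 tested were higher and 4 lower, with a median log2 difference of 0.45 against -0.001 over all genes. Their groups did not overlap in 5 genes, all higher, against 6.4% higher among all genes, and 0 passed after adjustment. Egr1, a zinc-finger transcription factor, stood at 443, 515 and 378 in knockdown libraries and 162, 192 and 246 in wild-type libraries. Every knockdown library lay above every wild-type library, with a log2 difference of 1.16 (SE 0.20, limma p = 0.000872) and an adjusted p of 0.00104 computed here from the p in the authors' deposited table. Egr3, its relative, stood at 305, 225 and 206 against 117, 176 and 135. Junb, a subunit of the AP-1 factor, stood at 397, 336 and 386 against 226, 298 and 279. Both sets of libraries were apart, with log2 differences of 0.78 and 0.48. Egr2, another relative, stood at 34.7, 30.9 and 48.4 against 16.7, 22 and 30.9, groups that met at their edges, with a log2 difference of 0.71. Not all members were higher: Jun, another AP-1 subunit, was at -0.03 and Nr4a1, a nuclear receptor, at -0.33. The list median was 0.21 without knockdown replicate 1 and at most 0.46 with any 1 library left out, and the number of genes higher was then 19 to 22. In untreated cultures the median of the immediate early genes was 0.30 and that of the late effectors 0.28.

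Late effectors, the secreted and synaptic proteins that follow, were higher in 25 of 27 genes tested, with a median of 0.44 and 6 genes whose groups did not overlap, all higher (6.4% of all genes). Sst, the peptide somatostatin of an interneuron class, stood at 1183, 790 and 756 in knockdown and 277, 429 and 404 in wild-type libraries. The log2 difference of Sst was 1.29 (SE 0.25, limma p = 0.00154), with an adjusted p of 0.000644 computed here from the p in the authors' deposited table. Genes of dense-core vesicles, which store such peptides, gave values in the same direction. Scg2, a secretogranin, stood at 534, 384 and 491 against 325, 262 and 316. Vgf, a precursor of secreted peptides, stood at 206, 90.3 and 115 against 39.3, 84.4 and 58. Pcsk1, a convertase that cuts such precursors, stood at 124, 74.6 and 74.9 against 27.9, 56.7 and 50.2. The groups of these 3 genes did not overlap, though in Vgf the nearest libraries were at 90.3 and 84.4. Bdnf, a growth factor, stood at 180, 86.3 and 155 against 79.4, 133 and 72.1, with overlapping groups and a log2 difference of 0.55 (SE 0.35). Nptx2 and Homer1, activity effectors of the synapse, were at 0.06 and -0.01. The median of the list ran from 0.27 without knockdown replicate 1 to 0.59 without knockdown replicate 3. Some genes are in several lists, so list medians and counts are not separate results. Sst is also in the neuropeptide and GABAergic lists and Vgf in the neuropeptide list. Syt1 is in both the pan-neuronal and presynaptic lists.

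**Figure D2:**
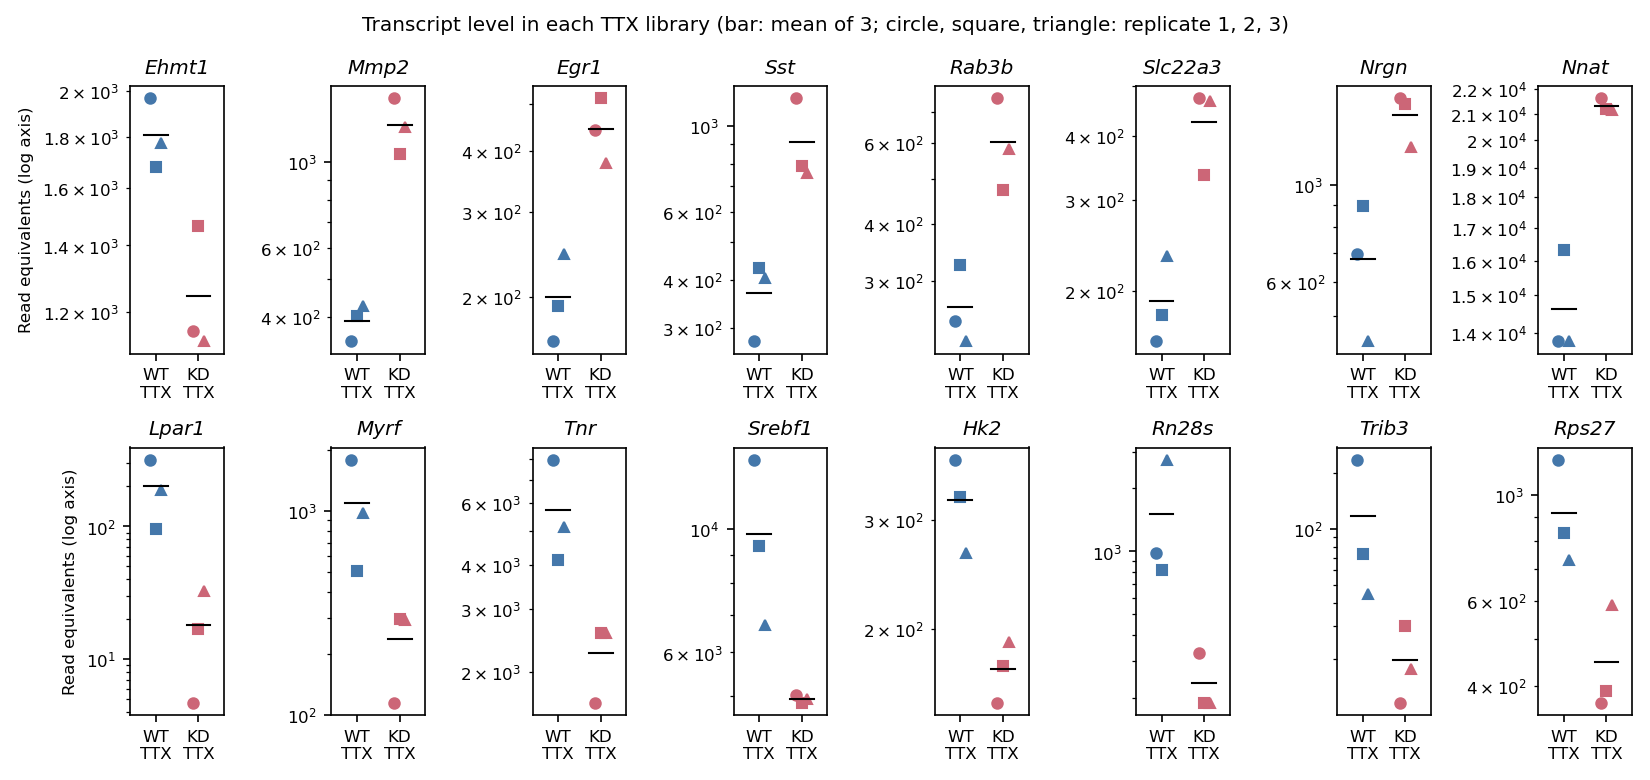
Level of 16 genes in each of the 6 TTX libraries, in read equivalents on a log axis (y), with wild-type in blue and knockdown in red. Symbols are replicates 1, 2 and 3 and the bar is the mean of 3 libraries. In each panel all knockdown libraries lie on one side of all wild-type libraries, as for Egr1 at 378 to 515 against 162 to 246.

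Mmp2 (NM_031054), a secreted matrix protease that cuts gelatin and other matrix proteins, had the smallest p of the genes with a mean of at least 100 read equivalents. It stood at 1463, 1052 and 1232 in the knockdown and 345, 401 and 425 in wild-type libraries, 3.18-fold higher (log2 1.67, SE 0.17, limma adjusted p = 0.187). Its adjusted p, computed here from the p in the authors' deposited table, was 1.32e-14. Other matrix enzymes were closer to even: of 18 matrix proteases and inhibitors 10 were higher, with a median of 0.06. Adamts18, a related protease, was at 0.77 (SE 0.30) and Timp2, an inhibitor that binds Mmp2, at 0.34 (SE 0.17). Cntnap5a and Cpne9 shared the limma adjusted p of Mmp2, and Cpne9 was named for it after its values were seen. Cntnap5a, a contactin-associated adhesion protein, stood at 66.3, 62.3 and 61.9 against 26.3, 26.2 and 24.2 (log2 1.28, SE 0.12). Cpne9, a calcium-binding copine, stood at 11.4, 9.7 and 9.63 against 23.8, 24.3 and 25.6 (log2 -1.19, SE 0.13). Of its knockdown libraries 1 reached the 10 read equivalents of the filter, so that Cpne9 entered the test through its wild-type libraries. Cntnap5a and Cpne9 had low levels, and the 3 libraries of each group lay close together. With trended and robust variance their SE were 0.27 and 0.37, with a limma adjusted p of 0.608 for each. Adjusted p computed here from the p in the authors' deposited table were 0.0766 for Cntnap5a and 0.477 for Cpne9.

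Several vesicle, transport and secretory genes stood among the 12 named higher genes. Rab3b, a small GTPase on synaptic vesicles, stood at 750, 473 and 581 in knockdown and 245, 324 and 222 in wild-type libraries (log2 1.18, SE 0.23). Slc22a3, a transporter of monoamines and other organic cations, stood at 474, 336 and 467 against 160, 180 and 234 (log2 1.15, SE 0.21). Nrsn2, a vesicle membrane protein of neurons, stood at 221, 178 and 199 against 93, 108 and 117 (log2 0.90, SE 0.15). In all 3 genes the groups were apart. Serpini1, the neuronal protease inhibitor neuroserpin, stood at 3700, 2981 and 3055 against 2006, 2236 and 1724 (log2 0.71). Ntng1, the axonal adhesion protein netrin-G1, stood at 336, 270 and 317 against 188, 196 and 142 (log2 0.81). Srsf12, a splicing factor of the SR family, was at 0.91, Dleu7 at 0.63 and Emc9, a subunit of a membrane protein complex of the endoplasmic reticulum, at 0.56. Grk1, the rhodopsin kinase of photoreceptors, had a log2 difference of 6.15 (SE 1.27) and a wide spread, at 1018, 574 and 115 against 1.32, 34.9 and 1.29. The wild-type libraries at 1.32 and 1.29 lay below the filter on levels. Grk1 met that filter, and the mean needed to be named, through its knockdown libraries. Its adjusted p computed here from the p in the authors' deposited table was 0.564. Limma p of the 12 genes, with Mmp2, Egr1 and Sst, lay between 3.54e-05 and 0.00347.

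Further higher genes with an adjusted p under 0.05 computed here from the p in the authors' deposited table were chosen after their values were seen. Nrgn, neurogranin, a postsynaptic protein of dendrites, stood at 1580, 1528 and 1222 against 694, 894 and 438 (log2 1.14, SE 0.27). Cend1, a protein of neurons leaving the cell cycle, was at 0.80 and Rgs16, a brake on G-protein signalling, at 1.62. Cd24, a surface glycoprotein of young neurons, stood at 19742, 12014 and 5294 against 3313, 4004 and 3616, so that the spread within the knockdown was wide (log2 1.57, SE 0.45). Nnat, neuronatin, an imprinted gene that lies in an intron of another gene, stood at 21628, 21184 and 21139 against 13783, 16314 and 13775 (log2 0.55, SE 0.13). The knockdown values of Nnat were close to each other and above every wild-type value.

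The 12 named lower genes included transcripts of ribosomal and signal recognition particle RNA and genes of oligodendrocytes. Rn28s (NR_046246), 28S ribosomal RNA left after the depletion step of the library protocol, stood at 329, 189 and 189 in knockdown and 982, 813 and 2746 in wild-type libraries (log2 -2.51, SE 0.49). LOC257642, named rRNA promoter binding protein in the deposited table, had the same order of libraries in wild-type, at 1092, 943 and 1520 against 3962, 3648 and 10841 (log2 -2.21). Wild-type replicate 3 was highest in both, and without it the other 2 wild-type libraries still lay above the knockdown. LOC102723236, whose accession NR_110377 RefSeq lists as Rn7sl1, the RNA of the signal recognition particle, stood at 246986, 330133 and 450323 against 763035, 677794 and 864537 (log2 -1.20, SE 0.24). Adjusted p of the 3 transcripts, computed here from the p in the authors' deposited table, were 2.28e-06, 2.28e-06 and 0.000644. Repeated copies of these RNAs in the genome make the share counted per entry uncertain.

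Genes of myelin-forming cells made up a second set of lower values. Lpar1, a receptor for lysophosphatidic acid, stood at 4.69, 16.8 and 32.6 in knockdown and 319, 94.9 and 188 in wild-type libraries (log2 -3.58, SE 0.71). Tnr, the matrix protein tenascin-R, stood at 1631, 2570 and 2578 against 7969, 4153 and 5132 (log2 -1.32, SE 0.30). Myrf, the transcription factor that switches on myelin genes, stood at 115, 296 and 293 against 1788, 510 and 975 (log2 -2.15, SE 0.55). No knockdown library reached a wild-type library in these 3 genes, and their adjusted p computed here from the p in the authors' deposited table were 0.000313, 0.00104 and 0.00104. Plxnb3, a semaphorin receptor, was at -1.82 and Tspan2, a tetraspanin of myelin-forming cells, at -1.18. Myrf, Plxnb3 and Tspan2 were chosen after their values were seen.

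The rest of the named lower genes were of mixed kinds, with metabolic and matrix genes among them. Hk2, a hexokinase of the first step of glycolysis, stood at 152, 174 and 190 in knockdown and 375, 327 and 266 in wild-type libraries (log2 -0.89, SE 0.17). Ddr2, a collagen receptor kinase, stood at 191, 211 and 177 against 558, 323 and 364 (log2 -1.06, SE 0.22). Acaa1b, a peroxisomal thiolase, was at -0.93, Hacd1, an enzyme that lengthens fatty acids, at -0.52, and Kbtbd11, a kelch and BTB domain protein, at -0.81. The groups of all 5 genes were apart. LOC498750, an uncharacterized protein in the deposited table, stood at 118, 88.4 and 80.2 against 381, 188 and 325 (log2 -1.59). LOC100911664, listed by RefSeq as C17h6orf62, was at -0.72. Srebf1, the regulator of fatty acid synthesis, stood at 5031, 4868 and 4940 against 13361, 9350 and 6728 (log2 -0.93, SE 0.25), with an adjusted p of 0.0155 computed here from the p in the authors' deposited table. Wild-type libraries of Srebf1 varied widely while the knockdown libraries were nearly equal.

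Pan-neuronal markers as a class had higher values in the knockdown, with the 3 knockdown libraries unlike each other. Of 14 pan-neuronal markers 13 were higher, with a median of 0.50 and 3 genes, all higher, whose groups did not overlap (6.4% of all genes). Uchl1, a neuronal ubiquitin hydrolase, stood at 11218, 9980 and 8358 against 7220, 7494 and 5967 (log2 0.51, SE 0.17). Stmn2, a tubulin regulator of growing axons, stood at 19494, 14643 and 12700 against 10542, 12689 and 8310 (log2 0.57). Nefl, the light neurofilament, was at 0.78. Taken as the median over the list of log2 levels minus the mean of the 6 libraries, the markers stood at 0.61, 0.20 and -0.15 in knockdown replicates 1 to 3. The same measure was -0.27, -0.05 and -0.41 in wild-type replicates 1 to 3, so that knockdown replicate 3 lay inside the wild-type range. The list median was 0.32 without knockdown replicate 1 and 0.63 without knockdown replicate 3. In bulk RNA, more cells of a type and more RNA per cell cannot be told apart, here and in the lists that follow.

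**Figure D3:**
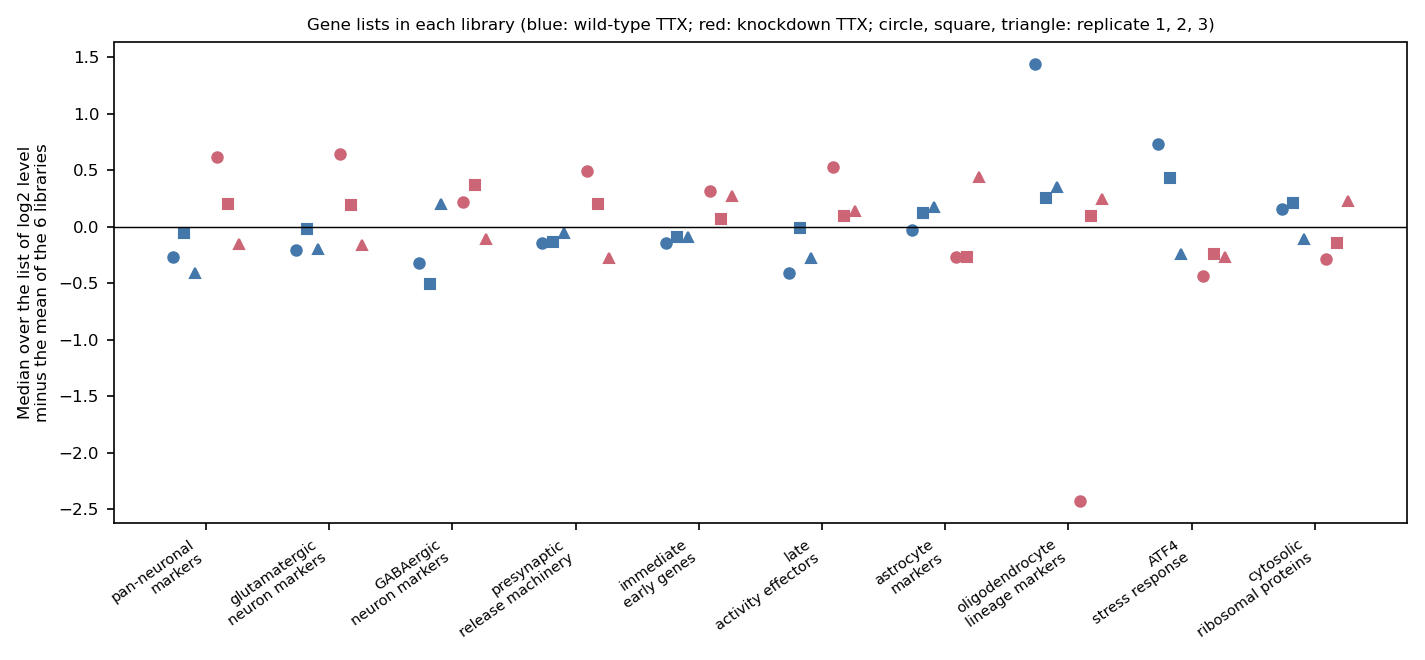
Median over each of 10 gene lists of the log2 level minus the mean of the 6 libraries (y), for wild-type (blue) and knockdown (red) TTX libraries, with symbols for replicates 1, 2 and 3. Knockdown replicate 1 is highest in the pan-neuronal and glutamatergic lists and at -2.43 in the oligodendrocyte list, while knockdown replicate 3 is below 0 in the pan-neuronal and presynaptic lists.

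Markers of both main neuron classes were higher in number. Of 12 glutamatergic markers 10 were higher, with a median of 0.38, from 0.20 without knockdown replicate 1 to 0.65 without knockdown replicate 3. Neurod6, a transcription factor of projection neurons, stood at 4286, 2689 and 3017 against 1702, 2571 and 1394 (log2 0.84, SE 0.28). Slc17a7, the vesicular glutamate transporter, stood at 9333, 6130 and 5232 against 4504, 6097 and 4128, with overlapping groups (log2 0.47). Of 15 GABAergic markers 11 were higher, with a median of 0.40, from 0.16 without wild-type replicate 1 to 0.63 without wild-type replicate 3. Lhx6, a factor of interneurons that include the Sst class, stood at 247, 203 and 184 against 115, 150 and 110 (log2 0.76, SE 0.18). Gad1, the enzyme that makes GABA, stood at 980, 1088 and 743 against 712, 498 and 1585, so that wild-type replicate 3 was above all knockdown libraries (log2 0.16). Of 12 neuropeptide precursors 11 were higher, with a median of 0.54, and Nmb alone was lower, at 8, 24.8 and 25.3 against 57.3, 67.2 and 31.7.

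Most receptor and channel lists shared this direction, to differing degrees. Of 11 inhibitory synapse and chloride transport genes 8 were lower and 3 higher, with a median of -0.05. That median was 0.04 without knockdown replicate 3. Of 15 voltage-gated calcium channel genes 12 were higher, with a median of 0.10. It ran from -0.04 without knockdown replicate 1 to 0.44 without knockdown replicate 3. Of 14 GABA receptor genes 11 were higher, with a median of 0.33 that was 0.20 without knockdown replicate 1. Gabra3, a GABA-A receptor subunit, stood at 525, 437 and 363 against 366, 305 and 250, with overlapping groups (log2 0.52). Of 12 voltage-gated sodium channel genes, which encode the target of TTX and its partners, 10 were higher, with a median of 0.29. The median was 0.09 without knockdown replicate 1 and 0.48 without knockdown replicate 3. Fgf13, a partner of these channels, stood at 2556, 1458 and 1434 against 1186, 1429 and 966 (log2 0.57), with knockdown replicate 1 above the rest. Scn2a, a main neuronal sodium channel, stood at 6748, 5296 and 3452 against 4085, 4211 and 3714, with overlapping groups. Of 30 potassium and HCN channel genes 25 were higher, with a median of 0.18 and 5, all higher, whose groups did not overlap (6.4% of all genes). Kcnc2, a fast-spiking potassium channel, stood at 114, 117 and 90.5 against 77.5, 72 and 80.3 (log2 0.47, SE 0.15). With 1 library left out in turn, 16 to 27 of these genes were higher, and the median ran from 0.03 without knockdown replicate 1 to 0.44 without knockdown replicate 3.

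Glutamate receptors gave smaller medians. The median was 0.16 over 17 AMPA receptor genes, and ran from -0.006 without knockdown replicate 1 to 0.33 without knockdown replicate 3. Cnih2, an auxiliary protein of these receptors, was at 0.41 and Cacng4, another, at -0.29. The median was 0.12 over 18 NMDA, kainate and metabotropic receptor genes, where the kainate subunit Grik1 stood at 140, 199 and 131 against 88.8, 94.4 and 96.3 (log2 0.72, SE 0.18). The median of these 18 genes was -0.04 without knockdown replicate 1 and 0.26 without knockdown replicate 3. Of 21 genes tied to synaptic scaling itself 13 were higher, with a median of 0.10 that ran from 0.07 without wild-type replicate 1 to 0.25 without wild-type replicate 3. Gria1 and Gria2, AMPA receptor subunits, were at 0.22 and -0.28, and Ntrk2, the receptor of Bdnf, at -0.40 (SE 0.17). Arc, which removes AMPA receptors from synapses, stood at 112, 87 and 186 against 102, 76.8 and 103, with overlapping groups (log2 0.38).

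At the synapse, 19 of 26 genes of the presynaptic release machinery were higher, with a median of 0.25. Syt1, the calcium sensor of release, stood at 4217, 3189 and 2471 against 2089, 2312 and 2158 (log2 0.56, SE 0.21). Cplx1, complexin, stood at 4813, 3997 and 2796 against 2126, 3007 and 2216 (log2 0.64), and Syn2, a synapsin, and Rab3a, a vesicle GTPase, were at 0.56 and 0.52. In each of these 4 genes knockdown replicate 1 was highest and knockdown replicate 3 lowest of the knockdown libraries. Without knockdown replicate 1 the list median was 0.04, and without knockdown replicate 3 it was 0.45. Postsynaptic scaffolds and kinases had a median of 0.17 over 22 genes, from 0.11 without knockdown replicate 1 to 0.41 without knockdown replicate 3, with Nrgn the largest and Dlg2, a scaffold, at 0.42. Synaptic adhesion genes had a median of 0.16 over 24 genes, which was 0.08 without knockdown replicate 1, and Lrrtm2, a partner of neurexin, was at 0.27.

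Clustered protocadherins, cell-surface identity proteins of neurons, were higher in 33 of 39 transcripts, with a median of 0.14 and groups that did not overlap in 10 higher and 2 lower, against 6.4% and 6.73% of all genes. Transcripts of the alpha and gamma clusters share their last exons, so their values repeat each other. The 2 with the smallest limma p in the beta cluster went opposite ways, Pcdhb20 at -0.45 (SE 0.14) and Pcdhb8 at 0.52 (SE 0.18). Of 8 non-clustered relatives 7 were higher, with Pcdh18 at 465, 483 and 432 against 301, 332 and 326 (log2 0.52, SE 0.12). Pcdh17 was lower, at 1251, 1457 and 1064 against 1872, 1560 and 1690 (log2 -0.45).

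**Figure D4:**
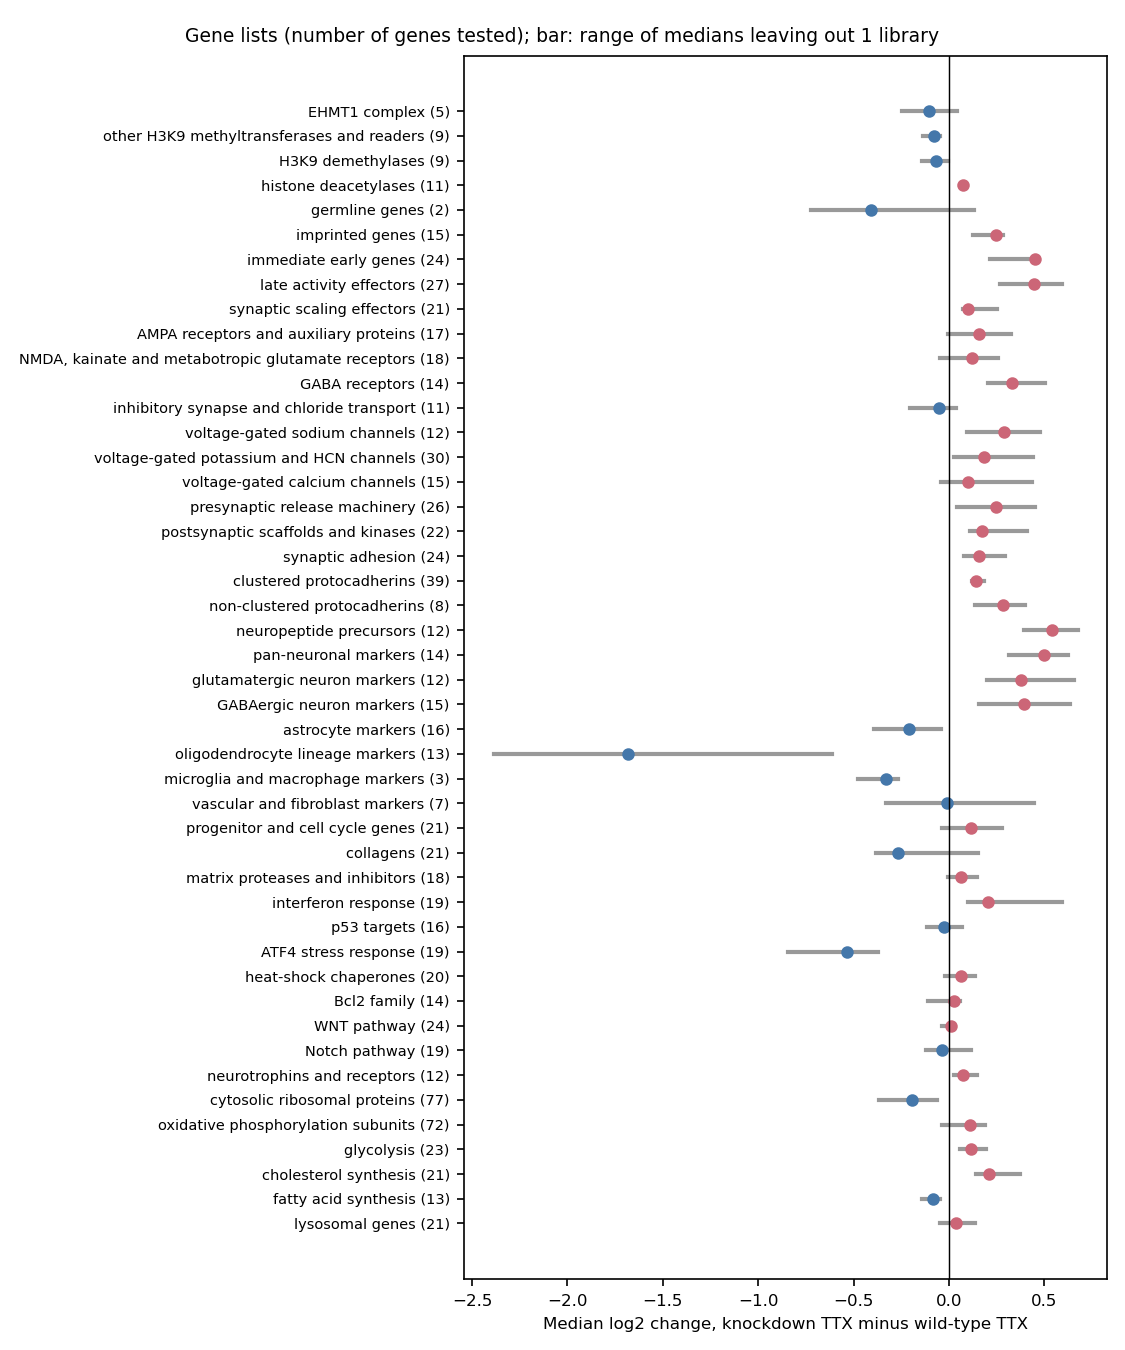
Median log2 difference between knockdown and wild-type TTX libraries (x) for each of 46 gene lists, with the number of genes tested in brackets. The grey bar runs from the lowest to the highest median when 1 of the 6 libraries is left out. Medians of the neuron marker and activity lists lie above 0, such as 0.50 for pan-neuronal markers. That of inhibitory synapse and chloride transport genes is at -0.05. Medians of oligodendrocyte markers at -1.68 and ATF4 stress genes at -0.54 lie farther below 0.

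Oligodendrocyte lineage markers had the lowest median of the 46 lists, -1.68, with 11 of 13 lower and 2 higher. The groups did not overlap in 4 genes lower and 1 higher, against 6.73% and 6.4% of all genes. Mbp, myelin basic protein, stood at 93.8, 373 and 1436 in knockdown and 7294, 1047 and 4241 in wild-type libraries (log2 -3.11, SE 1.10). Cldn11, the claudin of myelin, stood at 2.14, 18.5 and 20.8 against 777, 99 and 99.9. Wild-type replicate 1 was highest in both, and no knockdown library of Cldn11 reached a wild-type library. Precursor genes followed knockdown replicate 1: Sox10, the lineage factor, stood at 25.6, 503 and 579 against 1472, 739 and 808, and Gpr17, a receptor of committed precursors, at 18.1, 920 and 1213 against 3496, 1683 and 1369. Olig2, which neural progenitors also express, was near even at -0.11. Olig1, its neighbour and partner in the lineage, went the other way, at 20828, 16834 and 19031 against 12613, 14986 and 13782 (log2 0.45, SE 0.14). The list median was -0.61 without knockdown replicate 1 and -2.39 without knockdown replicate 3. Summed over the list, knockdown libraries held 30166 to 48673 and wild-type libraries 46750 to 72684, with overlap. The part of the oligodendrocyte markers in the lower values of Lpar1, Tnr, Myrf, Plxnb3 and Tspan2 was not tested.

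Markers of other cells were lower or close to even. Of 16 astrocyte markers 13 were lower, with a median of -0.21 that was -0.04 without knockdown replicate 1 and -0.39 without knockdown replicate 3. By library the list stood at -0.27, -0.27 and 0.44 in knockdown and -0.03, 0.12 and 0.18 in wild-type replicates 1 to 3, so that knockdown replicate 3 was the highest of all. The markers had sums of 175200 to 315261 in knockdown and 204168 to 268776 in wild-type libraries. Sox9, an astrocyte and progenitor factor, stood at 1486, 1996 and 2094 against 3041, 2205 and 3942 (log2 -0.70, SE 0.25), and Gfap, an intermediate filament, at 10393, 6663 and 20165 against 7843, 6966 and 27804. Gfap was highest in the third replicate of both groups, and its groups overlapped. Microglia left traces in wild-type replicates 1 and 3: C1qa, a complement gene, was at 0 in all 3 knockdown libraries and at 13.8, 0.826 and 34.4 in wild-type libraries. Of 14 microglia markers 3 reached the level needed for a test. Genes of dividing cells had a median of 0.12 over 21 genes, from -0.04 without knockdown replicate 3 to 0.28 without wild-type replicate 3, and Mki67 stood at 3079, 3662 and 3427 against 3885, 1933 and 5441. Vascular and fibroblast markers had sums of 1069 to 1659 against 1486 to 2398, with Pdgfrb of pericytes at -1.05 and Dcn of fibroblasts at 1.56. The part of these cells in the neuronal lists was not tested.

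Stress genes under the factor ATF4, which amino acid shortage and misfolded proteins switch on, were lower in 18 of 19 genes, with a median of -0.54. Groups did not overlap in 6 genes, all lower, against 6.73% of all genes. Trib3, a pseudokinase of this response, stood at 11.7, 30.2 and 17.7 in knockdown and 235, 73.5 and 44.8 in wild-type libraries (log2 -2.26, SE 0.63). Asns, asparagine synthetase, stood at 1016, 1095 and 977 against 2428, 1854 and 1157 (log2 -0.75). Nupr1, a small stress-induced nuclear protein, stood at 1.07, 7.06 and 0 against 24.6, 17.8 and 237. Nupr1 is among the 6 genes without overlap, and it met the filter on levels through its wild-type libraries alone. In Trib3 and Asns wild-type replicate 1 was highest, and wild-type replicate 3 was closest to the knockdown. Ddit4, an inhibitor of the growth kinase mTOR, stood at 363, 304 and 418 against 1460, 393 and 1353, with an adjusted p of 0.0323 computed here from the p in the authors' deposited table. Its groups overlapped through wild-type replicate 2. Atf4 itself was at 0.14, the 1 member with a higher value. By library the list stood at -0.43, -0.24 and -0.27 in knockdown replicates and at 0.73, 0.43 and -0.24 in wild-type replicates 1 to 3, so that wild-type replicate 3 lay just above the highest knockdown library. The list median was -0.37 without wild-type replicate 1 and -0.84 without wild-type replicate 3. Heat-shock chaperones and p53 targets had medians of 0.06 and -0.03, whose sign turned when 1 library was left out, and interferon response genes of 0.21, with 15 of 19 higher and B2m, a subunit of MHC class I, at 0.70 (SE 0.26). Without wild-type replicate 3 the interferon median was 0.59.

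Cytosolic ribosomal protein genes were lower in 52 of 77, with a median of -0.20, and groups did not overlap in 17 lower and 1 higher, against 6.73% and 6.4% of all genes. Rps27 stood at 369, 391 and 589 against 1182, 831 and 732 (log2 -1.03), and Rps23 at 1059, 1357 and 1582 against 2844, 2049 and 2098 (log2 -0.81). In both, components of the small ribosomal subunit, the groups were apart, and the adjusted p computed here from the p in the authors' deposited table were 0.0298 and 0.0404. Reads of ribosomal protein genes can be split with near-identical copies, so single values are uncertain. The list median was -0.06 without knockdown replicate 1 and -0.37 without knockdown replicate 3.

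Energy and lipid genes differed in direction by pathway. Of 72 oxidative phosphorylation subunits 48 were higher, with a median of 0.11 that was -0.04 without knockdown replicate 3. Of 23 glycolysis genes 16 were higher, with a median of 0.11, while Hk2 and the glucose transporter Slc2a1 were lower, the latter at 810, 957 and 1394 against 1483, 1519 and 1864 (log2 -0.65). Of 21 cholesterol synthesis genes 20 were higher, with a median of 0.21 and 4, all higher, whose groups did not overlap (6.4% of all genes). Ebp, a sterol isomerase, stood at 110, 84.6 and 102 against 60.5, 63.5 and 54.5 (log2 0.72, SE 0.15), and Mvd, an enzyme of the mevalonate route, at 1017, 1018 and 918 against 718, 799 and 571 (log2 0.51). Of 13 fatty acid synthesis genes 8 were lower, with a median of -0.08, led by Srebf1 and with the desaturase Scd2 at -0.32.

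Imprinted genes, expressed from a single parental copy, were higher in 14 of 15, with a median of 0.25 and 4, all higher, whose groups did not overlap (6.4% of all genes). Besides Nnat, Dio3, an enzyme that inactivates thyroid hormone, stood at 64.2, 43.8 and 94.1 against 27.6, 41.8 and 20.5 (log2 1.13, SE 0.35). Cdkn1c, a cell cycle inhibitor, was the lower member, at 37.3, 357 and 433 against 1150, 614 and 382. Of 21 collagens 12 were lower, with a median of -0.27 that was 0.15 without knockdown replicate 3. Col16a1 stood at 1053, 1421 and 1442 against 2231, 1908 and 2139 (log2 -0.69, SE 0.17), and Col11a1 at 445, 564 and 804 against 1477, 834 and 2650 (log2 -1.34). Both had an adjusted p under 0.05 computed here from the p in the authors' deposited table, at 0.0367 and 0.0337. Signalling lists were near even, with medians of 0.01 over 24 WNT, -0.04 over 19 Notch and 0.07 over 12 neurotrophin genes. The sign of the WNT and Notch medians turned when 1 library was left out. Wif1, a secreted WNT inhibitor, stood at 151, 127 and 145 against 82.7, 105 and 57.1 (log2 0.82, SE 0.23), and Dll4, a Notch ligand, was at 1.07.

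The knockdown difference was also fitted in untreated cultures, in 1 limma model of all 12 libraries in 4 groups. The untreated libraries are not independent of the TTX libraries, since libraries of the same genotype and number deviated together with and without TTX. Ehmt1 was at -0.48 without TTX and -0.55 with it, and Nrsn2 at 0.97 and 0.90. Mmp2 stood at 1361, 778 and 1104 in knockdown and 284, 333 and 544 in wild-type libraries without TTX, again with groups apart. Egr1 was at 0.74 and 1.16, Sst at 0.73 and 1.29 and Rab3b at 0.76 and 1.18. Cpne9 was at 0.15 without TTX and -1.19 with it. Emc9, Kbtbd11 and LOC100911664 were near even without TTX, at 0.12, -0.09 and -0.09. List medians without TTX were 0.38 for pan-neuronal markers, -1.54 for oligodendrocyte markers, -0.50 for ATF4 stress genes and -0.32 for ribosomal protein genes. That of collagens was 0.03 without TTX and -0.27 with it. The difference between the knockdown effects with and without TTX passed for 0 of 12073 genes (0.0%) in limma, and 53 (0.439%) had an unadjusted p under 0.05. With each culture as a term 455 genes (3.77%) had an unadjusted p under 0.05 and 0 passed. The fit without culture as a term took the 12 libraries as independent, so its SE do not measure the spread within a culture. Genes are named here from that fit. The 3 of smallest interaction p in each direction, among those with a mean of at least 100, had a limma adjusted p of 0.9999. On the log2 scale their interactions were 0.60 (SE 0.21) for Smtnl2, 0.52 (SE 0.20) for Nell1 and 0.51 (SE 0.21) for Ankrd16, and -0.67 (SE 0.22) for Lca5, -0.60 (SE 0.23) for Rap2a and -0.37 (SE 0.16) for Man1c1. Nell1, a secreted signalling protein, stood at 283, 305 and 286 in knockdown and 172, 227 and 155 in wild-type TTX libraries. Without TTX it stood at 436, 471 and 452 against 423, 426 and 373, so that the groups were closer. Lca5, a protein of cilia, was lower in the knockdown with TTX, at 163, 210 and 184 against 243, 217 and 253, and higher without it, at 338, 316 and 253 against 277, 206 and 248.

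**Figure D5:**
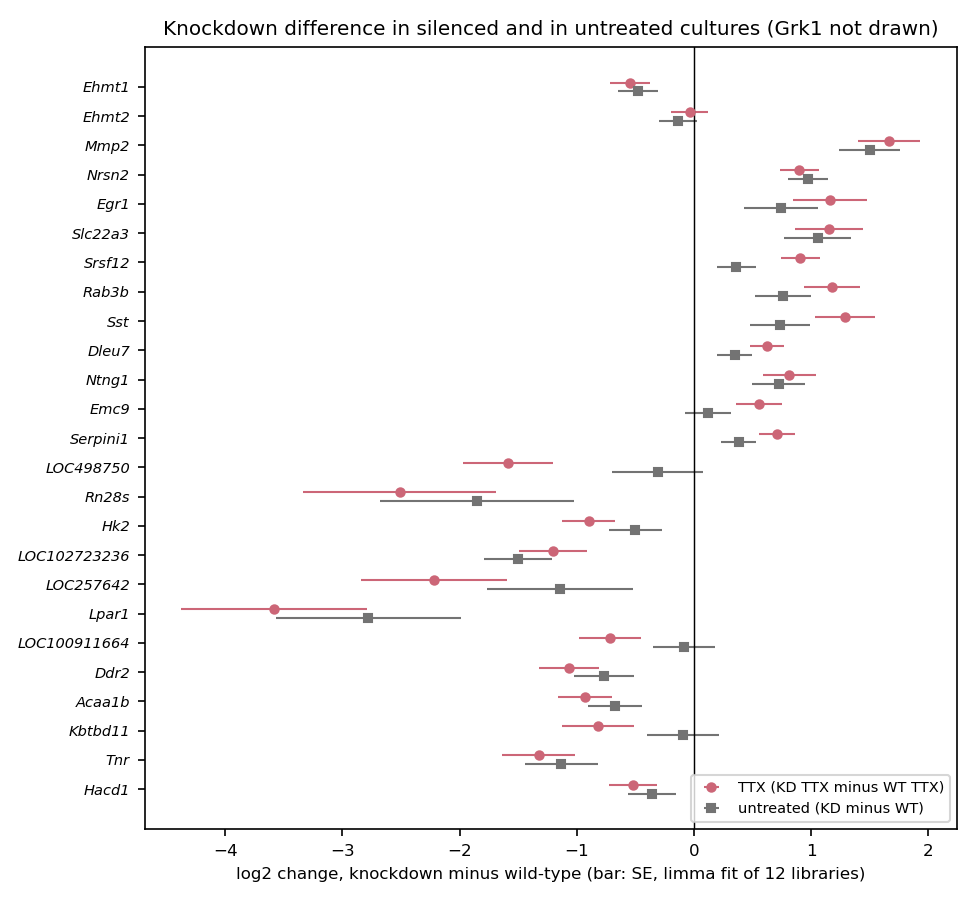
Log2 difference between knockdown and wild-type (x) in TTX cultures (red circles) and untreated cultures (grey squares) for 25 named genes, with SE from the limma fit of 12 libraries. Nrsn2 is at 0.90 with and 0.97 without TTX, LOC498750 at -1.59 and -0.31, and Grk1 at 6.16 and 4.84 is left out of the drawing.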

How the data were processed

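RNA of the cultures was sequenced after depletion of ribosomal RNA, per the labels' protocols. The deposited table holds signal, the base coverage summed per RefSeq transcript and divided by the authors' size factor, with a z score and a p-value per entry that the authors computed with DESeq, per the file headers. GSNAP, DESeq, DESeq2 and rn6 are named in the submitters' processing notes. Signal was divided by 42, and the entry of highest mean was kept for each of 17339 symbols. limma 3.58.1 in R 4.3.3 was fitted to log2(value + 1) of 3 against 3 libraries, unpaired, for genes with at least 10 in at least 3 libraries, with 4 residual degrees of freedom and Benjamini-Hochberg adjustment at 0.05, two-sided. The fit was tested on simulated data. Low values are understated as fold changes by the pseudocount of 1. Exact counts per library were not used, so no counting interval is given.

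Named genes are Ehmt1, Ehmt2, the 12 of smallest p in each direction with a mean of at least 100 and groups that do not overlap, up to 4 members a list by p, and the 3 of smallest interaction p in each direction. Some genes that this rule names are not reported here. Other genes named were chosen after their values were seen. Members and lists were chosen with earlier results of these data known. Alternatives were scale factors (TMM and upper quartile), pseudocounts of 0.5 and 5, undivided values, filters, every entry, 12 libraries, trended variance, a replicate block, each library left out and the authors' p-value. Untreated levels and the fits of 12 libraries came from the deposited table of the whole experiment, which has its own size factors. For knockdown replicate 1 with TTX the size factor was 0.934 in the table of this comparison and 0.904 in that of the whole experiment. Levels printed with and without TTX are therefore on slightly different scales. The z scores and p-values of other deposited comparisons were not used here.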

Additional observations from a re-analysis of the deposited data

How the results depend on the processing

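In limma 0 genes passed under every alternative run, which were other scale factors, pseudocounts, filters, every distinct entry, all 12 libraries, trended and robust variance, a replicate block and each library left out. The p-values in the authors' deposited table gave 48. The replicate number did not pair the TTX groups, since same-numbered libraries deviated with correlations of -0.22, -0.15 and -0.02, and with the replicate block 0 genes passed and 644 had an unadjusted p under 0.05. With 1 library left out in turn, the sign turned for some genes named, with log2 differences in these ranges: Ankrd16 -0.110 to 0.0949, Atf4 -0.101 to 0.367, Aurkb -1.82 to 0.336, Dmc1 -1.14 to 0.598, Ehmt2 -0.154 to 0.0633, Gad1 -0.199 to 0.634, Gfap -0.466 to 0.597, Homer1 -0.109 to 0.154, Jun -0.170 to 0.0825, Mki67 -0.444 to 0.303, Nptx2 -0.0565 to 0.303, Nr4a1 -0.614 to 0.0810, Olig2 -0.264 to 0.0894, Top2a -0.0818 to 0.205. In the authors' deposited table the z score of Homer1 was 0.005, of opposite sign to its log2 difference here. List medians that moved by more than the spread between libraries had these ranges with 1 library left out: Bcl2 family -0.112 to 0.0600, EHMT1 complex -0.244 to 0.0444, WNT pathway -0.0336 to 0.0195, collagens -0.382 to 0.151, immediate early genes 0.214 to 0.460, imprinted genes 0.128 to 0.283, inhibitory synapse and chloride transport -0.203 to 0.0366, interferon response 0.101 to 0.591, matrix proteases and inhibitors -0.00538 to 0.146, microglia and macrophage markers -0.474 to -0.268, synaptic scaling effectors 0.0738 to 0.251. With at least 50 read equivalents the median was 1.15 for neuropeptides and 0.103 for the WNT pathway. For microglia markers it was -1.27 with no filter and -2.07 in the fit of 12 libraries. The causes were not tested. List medians have no value under the authors' p. With 3 libraries a group, differences within the spread of 1 library were not detectable. Nor did any of the 1545 genes whose groups did not overlap pass in limma.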
